A study of Homo sapiens with 24 samples.

Results

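The 38 genes described here act in homologous recombination, in the Fanconi pathway of DNA crosslink repair and in the checkpoint that accompanies them. They were taken as the rows of the gene count table whose Ensembl identifier maps to a listed symbol or an older name of it. All 38 were found among 60668 rows, and all 38 passed the filter on low counts that 22158 genes passed. The samples were 24 RNA sequencing libraries from MCF-10A cells, an established, non-tumour line of human mammary epithelium, grown as 3D cultures on Matrigel. The parental line was set beside MCF-10A MYC-ER, which carries a fusion of MYC with the part of the oestrogen receptor that binds hormone, so that the ligand 4-hydroxytamoxifen (4-OHT) switches the fusion protein on. Both lines received 1 µM 4-OHT for 0, 8, 24 or 48 h, starting from day 3 of culture and ending for every sample on day 5, with 3 libraries per line and time. The 0 h cultures received none, and the parental cultures were given the ligand without carrying the fusion. The labels do not say whether the MYC-ER line is a single clone or which promoter drives the fusion. They say that wells were seeded in triplicate and name no separate passages, so the p-values below measure the spread between these samples, which may be technical.

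Homologous recombination copies a broken DNA stretch from the sister chromatid. The break is cut back to single strands by nucleases such as EXO1, a step that RBBP8 starts. BRCA1, PALB2 and BRCA2 guide the build-up of a protein filament on these strands, and stabilising and motor proteins shape that filament. The joined molecules are taken apart by BLM with its partners or cut by structure-specific nucleases. In the Fanconi pathway a core complex attaches ubiquitin to FANCD2 and FANCI at stalled forks, which calls in the crosslink nucleases. Because a sister chromatid is needed, these systems work mainly in S and G2 phase, and dividing epithelium makes more of their transcripts than resting epithelium.

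The libraries held between 136860029 and 182438505 counts each and 3 counts in the smallest library correspond to 0.0219 CPM, where CPM is the count of a gene scaled to the library's total. Libraries of a group correlated at a Spearman's rho of 0.983 to 0.992 over the tested genes, and 23 of the 24 were nearest to a library of their own group. MYC itself stood at 387 ± 8.02 CPM in untreated MYC-ER cells and 795 ± 1.77 CPM at 8 h, against 532 ± 68.7 CPM in untreated parental cells (mean ± SD, n = 3). It was not raised at the later times: summed with the oestrogen receptor gene ESR1 it stood at 387 ± 8.03 CPM at 0 h in MYC-ER cells. That sum was 321 ± 8.84 CPM at 24 h and 248 ± 4.68 CPM at 48 h. The counts do not tell the fusion from the cell's own MYC. The summed level of 9 mammary epithelial markers was 10229 to 15607 CPM in the MYC-ER groups and 20265 to 26878 CPM in the parental groups, most of it keratin KRT5. These markers did not move together: in MYC-ER cells KRT5 went from 12527 ± 238 CPM at 0 h to 7094 ± 144 at 24 h, and EPCAM from 1.93 ± 0.22 to 75.8 ± 3.04 CPM. Their part in the results below was not tested. Leukocyte markers summed to at most 0.0252 CPM in any group mean. For endothelial markers (PECAM1, CDH5 and VWF) the group means ran from 0.147 CPM (MYC-ER 0 h) to 1.95 CPM (parental 48 h). Of the fibroblast markers COL1A1 and DCN were present (215 and 157 CPM in untreated MYC-ER cells, 64.4 and 21.4 CPM at 24 h), while COL3A1 and PDGFRA did not pass the filter. Fewer cells of a kind and less RNA per cell cannot be told apart in such bulk samples.

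In untreated cells the repair genes were far lower in the MYC-ER line than in its parent. Of the 38 genes, 31 were lower in MYC-ER cells and 3 were higher, with a median log2 difference of -1.39 against 0.00 over all genes tested (edgeR quasi-likelihood test, Benjamini-Hochberg adjusted p under 0.05). Over all genes tested, 32.7% were called lower and 31.6% higher in this comparison. At least 2-fold lower were 24 of the 38, for which the share over all genes was 15.0%. EXO1, the exonuclease of long-range end resection, stood at 0.383, 0.533 and 0.561 CPM in the untreated MYC-ER libraries and at 39.7, 39.5 and 39.0 CPM in the untreated parental ones, a log2 difference of -6.32 ± 0.09 (SE). Next to it came POLQ, the polymerase of microhomology-mediated end joining (-5.40 ± 0.17), EME1, the partner of the MUS81 nuclease (-5.26 ± 0.12), BLM, the helicase mutated in Bloom syndrome (-4.69 ± 0.15), and RAD54L, a motor protein of the filament (-4.63 ± 0.08). Altogether 9 genes had a mean under 1 CPM in untreated MYC-ER cells (BLM, BRCA2, EME1, EXO1, FANCB, POLQ, RAD51AP1, RAD54L and RMI2). The 3 that were higher were the damage kinase ATM, the checkpoint mediator TOPBP1 and FANCE, a subunit of the Fanconi core complex. With the GC and length trends of each library removed, the difference of ATM went from 0.91 to 0.37 and that of TOPBP1 from 0.37 to 0.07, which did not pass the test (adjusted p = 0.13). The summed level of 15 S phase genes was 256 ± 1.87 CPM in untreated MYC-ER and 1248 ± 45.7 CPM in untreated parental cells, and its part in the result was not tested.

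**Figure D1:**
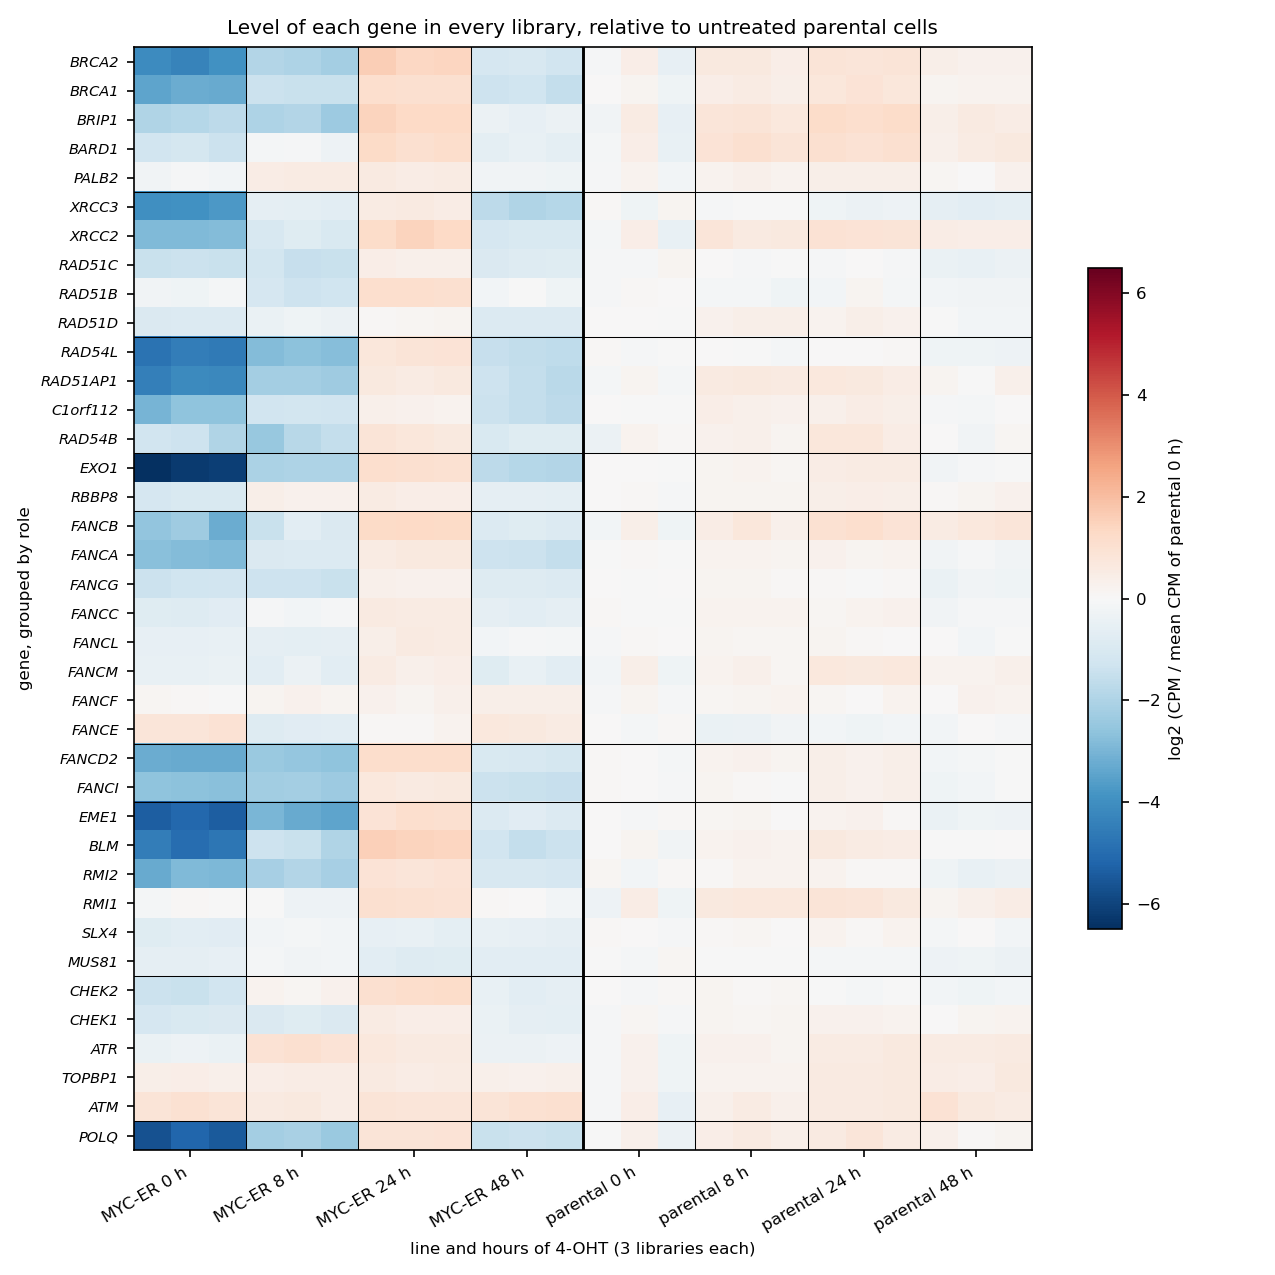
Colour gives the log2 ratio of each gene's CPM in each of the 24 libraries to its mean in the 3 parental 0 h libraries; rows are the 38 genes grouped by role, and columns are the libraries in blocks of 3 by line and hours of 4-OHT. The MYC-ER 0 h block is blue for most rows, down to EXO1, the MYC-ER 24 h block is light red for most rows, and the MYC-ER 48 h block is pale blue for most rows, while the parental blocks stay pale.

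After 24 h of 4-OHT most of the set rose in MYC-ER cells. Against 0 h, 34 of the 38 genes were higher and 2 were lower, with a median log2 change of 2.31 against -0.02 over all genes tested. Over all genes 30.4% were called higher and 31.2% lower. At least 2-fold higher were 30 of the 38 (15.2% of all genes), and 11 rose at least 16-fold: BLM, BRCA1, BRCA2, EME1, EXO1, FANCD2, POLQ, RAD51AP1, RAD54L, XRCC2 and XRCC3. The summed level of the 38 went from 520 ± 11.4 CPM at 0 h to 701 ± 12.9 at 8 h, 1463 ± 22.5 at 24 h and 664 ± 5.61 at 48 h. In 28 of the 38 the MYC-ER 24 h mean was the highest of all 8 groups, and in 25 the MYC-ER 0 h mean was the lowest. The order of the group means was not counted over all genes tested.

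Genes that mark the cell cycle moved over the same hours, and their part in the result was not tested. All 15 S phase genes and all 10 genes of G2 and mitosis were higher at 24 h than at 0 h in MYC-ER cells, with median log2 changes of 3.81 and 6.10. The summed S phase level was 256 CPM at 0 h and then 664 ± 14.8, 1792 ± 53.0 and 412 ± 12.2 after 8, 24 and 48 h of 4-OHT. For G2 and mitosis the sums were 35.7 ± 1.05, 72.4 ± 2.27, 1657 ± 39.5 and 491 ± 21.1 CPM. MKI67, the proliferation marker Ki-67, stood at 1.74 ± 0.10 CPM in untreated MYC-ER cells and 371 ± 8.70 CPM at 24 h, against 209 ± 30.6 CPM in untreated parental cells. In the parental groups the S phase sum lay between 1003 and 1414 CPM and the mitotic sum between 985 and 1327 CPM.

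**Figure D2:**
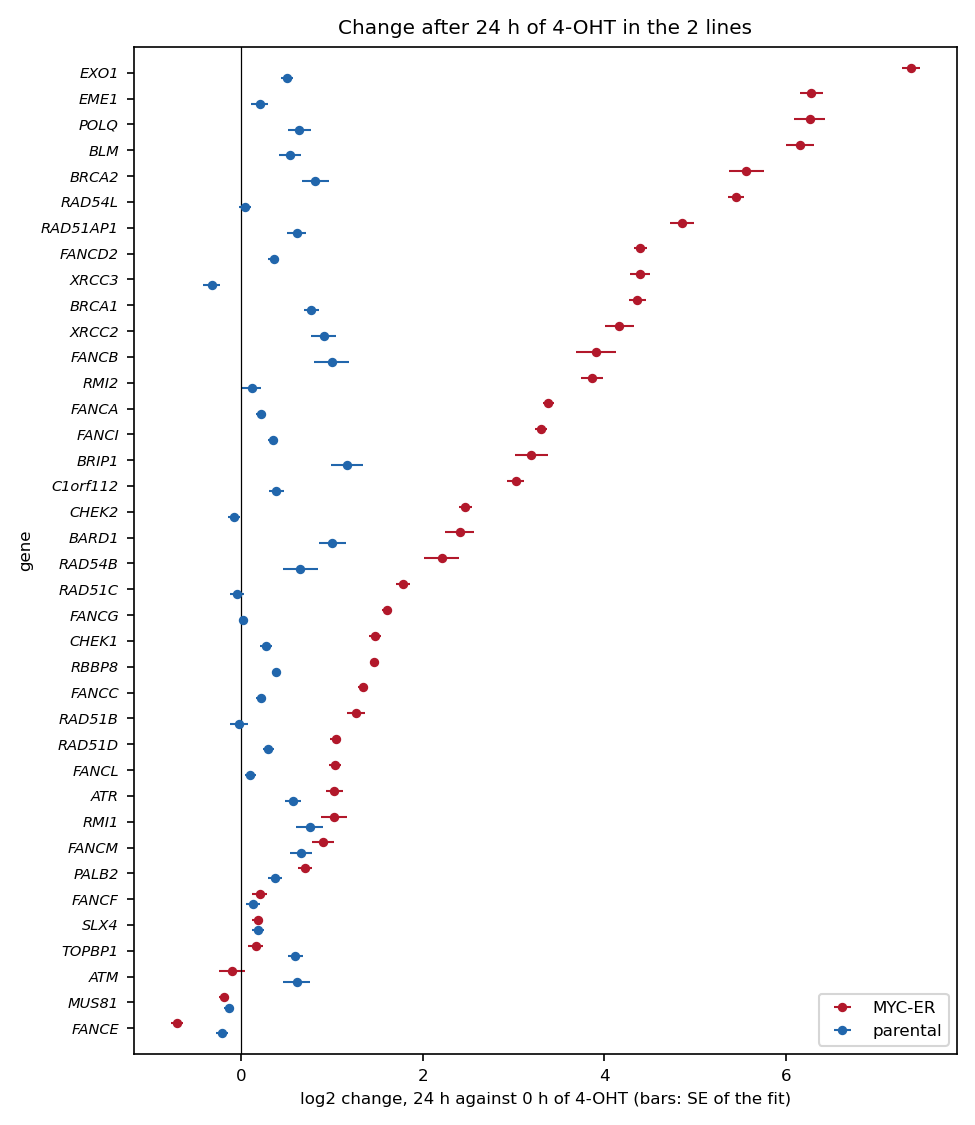
Points give each gene's log2 change between 24 h and 0 h of 4-OHT, in MYC-ER (red) and parental cells (blue). Rows are the 38 genes, ordered by the MYC-ER change. Bars are the SE of the fit, with 3 libraries per group and the spread estimated over all 24 libraries. EXO1 stands at 7.38 and FANCE at -0.70 in MYC-ER cells, while the parental changes lie between -0.32 (XRCC3) and 1.17 (BRIP1).

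Among the BRCA genes all 5 rose by 24 h. BRCA2, the mediator of filament assembly on single-stranded DNA (chromosome 13, 32315474 to 32400266, plus strand, GENCODE 29 on GRCh38), had 0.806, 0.686 and 0.882 CPM at 0 h, 3.71, 3.46 and 2.95 CPM at 8 h, 41.2, 34.7 and 36.5 CPM at 24 h, and 6.47, 6.63 and 5.76 CPM at 48 h. The libraries of the 4 times did not overlap, with those of 0 h lowest, then 8 h, 48 h and 24 h. Its log2 change at 24 h was 5.57 ± 0.19 (adjusted p = 1.5e-16). BRCA1, a ubiquitin ligase that acts in resection and filament assembly, went from 3.13 ± 0.21 CPM to 11.4 ± 0.16 at 8 h and 64.5 ± 0.78 at 24 h, a log2 change of 4.37 ± 0.10. Its obligate partner BARD1 rose by less, 2.41 ± 0.16 on the log2 scale. BRIP1, the helicase bound by BRCA1, had log2 changes of -0.24 at 8 h, which did not pass the test (adjusted p = 0.25), and 3.20 ± 0.19 at 24 h. PALB2, the bridge between BRCA1 and BRCA2, rose at 8 h (0.68 ± 0.08) and differed between 8 and 24 h by 0.02 ± 0.08, which did not pass the test.

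The filament stabilisers RAD51B, RAD51C, RAD51D, XRCC2 and XRCC3 were all higher at 24 h but reached that point in different ways. XRCC2 rose in steps, from 1.49 ± 0.03 CPM at 0 h to 5.58 ± 0.52 at 8 h and 26.6 ± 2.30 at 24 h. RAD51C stayed at 10.2 ± 0.14 and 10.5 ± 1.18 CPM over the first 8 h and stood at 35.3 ± 0.99 CPM at 24 h. RAD51B dipped before it rose: it had 3.39, 3.31 and 3.68 CPM at 0 h, 1.88, 1.54 and 1.59 CPM at 8 h, and 8.42, 8.31 and 8.28 CPM at 24 h. The 8 h libraries were all below, and the 24 h libraries all above, the untreated ones, with log2 changes of -1.05 ± 0.10 and 1.27 ± 0.10 against 0 h. It was called lower at 8 h and higher at 24 h in the reported fit and every alternative that used all libraries. RAD54B took the same calls with at least 10 counts asked of every library, and RAD54B, FANCG and FANCL did with library size alone as the scaling.

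XRCC3 had 1.13, 1.16 and 1.37 CPM at 0 h, 11.9, 11.4 and 11.2 CPM at 8 h, and 25.6, 26.5 and 24.8 CPM at 24 h in MYC-ER cells, a rise of 4.39 ± 0.11 on the log2 scale. Its value is uncertain because 76.7% of its exon bases (chromosome 14, 103697609 to 103715504, minus strand) are also exon bases of KLC1. That is a motor protein gene on the opposite strand, and the strand setting of the counting is not given in the sources used here. KLC1 stood at 98.3 ± 0.30, 132 ± 3.25, 71.8 ± 0.52 and 80.3 ± 1.70 CPM at 0, 8, 24 and 48 h, and so was lower at 24 h than at 0 h (-0.45 ± 0.04). Exon overlap above 20% was found for 4 other genes: RAD54B with FSBP on the same strand (59.1%), RAD54L with LRRC41 (25.1%), FANCA with ZNF276 (23.6%) and C1orf112 with METTL18 and SCYL3 (23.3%). None of the exon bases was shared for 15 genes. BRCA1, CHEK2 and FANCD2 have partial copies elsewhere in the genome, and how reads shared with these were counted is not given in the sources used here.

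Of the other factors that act on the filament, RAD54L rose from 0.70 ± 0.07 to 30.8 ± 1.41 CPM by 24 h (5.45 ± 0.08) and RAD51AP1, which helps the pairing of DNA strands, from 0.44 ± 0.05 to 12.8 ± 0.49 CPM (4.86 ± 0.13). C1orf112, also called FIRRM, a partner of the filament remodeller FIGNL1, rose by 3.02 ± 0.09. RAD54B had a log2 change of -0.41 ± 0.20 at 8 h, which did not pass the test, and 2.21 ± 0.20 at 24 h.

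EXO1 (chromosome 1, 241847967 to 241895148, plus strand) had the largest rise of the set. From the untreated values above it went to 9.49, 9.83 and 9.74 CPM at 8 h, 84.0, 82.1 and 79.4 CPM at 24 h and 11.9, 11.0 and 10.4 CPM at 48 h. Untreated libraries and those of 8 and 24 h did not overlap, and against 0 h the log2 change was 4.30 ± 0.09 after 8 h, 7.38 ± 0.10 after 24 h and 4.49 ± 0.09 after 48 h. RBBP8 (CtIP), which starts resection, did most of its rise within 8 h, from 30.5 ± 1.06 to 77.3 ± 2.96 CPM, and stood at 84.3 ± 3.52 CPM at 24 h. POLQ, which joins ends that recombination does not use, rose by 3.17 ± 0.16 at 8 h and 6.26 ± 0.17 at 24 h.

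The Fanconi ID complex rose late. FANCD2 (chromosome 3, 10026414 to 10101930, plus strand) had 3.58, 3.49 and 3.51 CPM at 0 h, 6.36, 5.99 and 5.59 CPM at 8 h, 73.9, 75.0 and 74.4 CPM at 24 h, and 16.7, 16.4 and 15.1 CPM at 48 h. The 24 h libraries stood far above all others of the line and above the highest parental library of any time, which had 44.5 CPM. Its log2 change was 0.76 ± 0.07 at 8 h and 4.40 ± 0.07 at 24 h, and that of its partner FANCI 0.39 ± 0.06 and 3.31 ± 0.07.

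The 8 subunits of the Fanconi core complex did not move as a block. At 24 h 7 were higher and 1 was lower, with log2 changes from -0.70 to 3.91 and a median of 1.19. FANCB (3.91 ± 0.22) and FANCA (3.38 ± 0.06) rose most, followed by FANCG (1.61 ± 0.06), FANCC (1.34 ± 0.06), FANCL, the ubiquitin ligase of the complex (1.04 ± 0.06), and FANCM, its DNA translocase (0.90 ± 0.13). FANCG, FANCL and FANCM were not called at 8 h. FANCF had 22.4, 20.9 and 19.8 CPM at 0 h and 24.4, 22.9 and 25.3 CPM at 24 h. That difference of 0.20 ± 0.08 (adjusted p = 0.028) was lost without MYC-ER 0 h replicate 2 or 3, or without 24 h replicate 1 or 3, with values of 0.16 to 0.20. It was also lost with no filter on low counts (0.20) and with GC and length trends removed (0.16).

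FANCE (chromosome 6, 35452356 to 35467103, plus strand) went the other way. It had 49.8, 48.8 and 55.0 CPM at 0 h, 16.0, 17.2 and 17.6 CPM at 8 h, 30.6, 30.6 and 33.0 CPM at 24 h, and 46.1, 43.8 and 41.9 CPM at 48 h. The 8 h libraries were the lowest, those of 24 h lay between, and those of 48 h were still below the untreated ones. The log2 changes against 0 h were -1.60 ± 0.07, -0.70 ± 0.07 and -0.22 ± 0.07 (adjusted p = 7.6e-15, 6.4e-09 and 0.011). The last of these did not pass the test without MYC-ER 0 h replicate 3 or without 48 h replicate 3 (-0.17 and -0.19), nor with library size alone as the scaling (-0.06). FANCE and RAD51B were the 2 genes called lower at 8 h in MYC-ER cells, a number that was 6 with library size alone (with ATM, FANCG, FANCL and RAD54B) and 4 with at least 10 counts asked of every library (with ATM and RAD54B). ATM joined them with the replicate block, with GC and length trends removed and in a fit of the compared groups only.

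**Figure D3:**
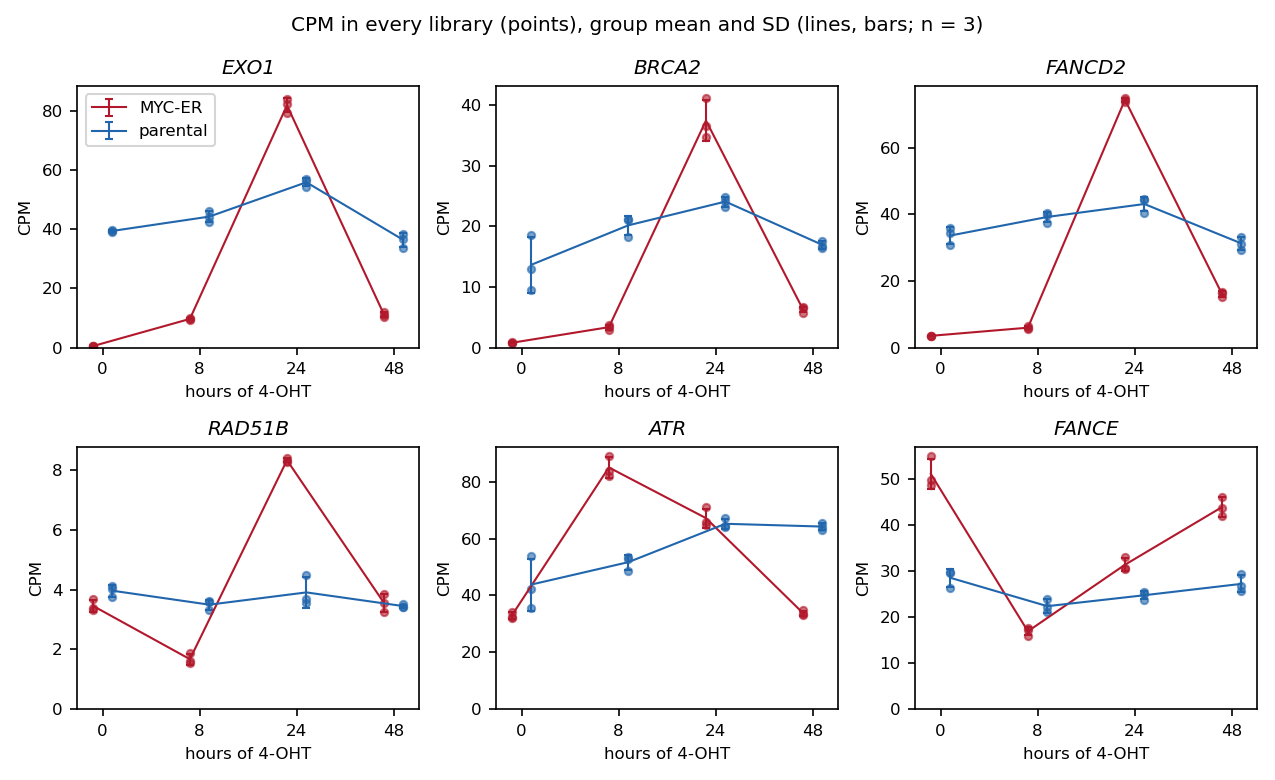
CPM in every library (points) with group means and SD (lines and bars, n = 3) at 0, 8, 24 and 48 h of 4-OHT for 6 genes, in MYC-ER (red) and parental cells (blue); each vertical axis starts at 0 and the times are evenly spaced. EXO1, BRCA2 and FANCD2 peak at 24 h in MYC-ER cells, RAD51B first drops from 3.46 to 1.67 CPM, ATR is highest at 8 h with 85.0 CPM, and FANCE is lowest at 8 h with 16.9 CPM.

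Junction dissolution and cleavage were split in the same comparison. BLM rose from 0.45 ± 0.07 to 32.0 ± 1.70 CPM by 24 h and its partner RMI2 from 0.86 ± 0.13 to 12.6 ± 0.47 CPM, while RMI1, the third protein of that complex measured here, rose by 1.02 ± 0.15. EME1 rose by 6.28 ± 0.13. Its catalytic partner MUS81 had 27.7, 27.9 and 28.8 CPM at 0 h, 38.5, 35.2 and 37.1 CPM at 8 h, and 25.7, 23.6 and 24.7 CPM at 24 h. The 8 h libraries were above and the 24 h libraries below the untreated ones, with log2 changes of 0.39 ± 0.06 and -0.19 ± 0.06. With library size alone as the scaling, the second was -0.07 and did not pass the test (adjusted p = 0.23). SLX4, the scaffold that binds MUS81, rose to 15.8 ± 0.42 CPM at 8 h from 10.6 ± 0.30 and stood at 12.0 ± 0.53 CPM at 24 h. The rise of SLX4 at 24 h, 0.18 ± 0.06, did not pass the test without MYC-ER 0 h replicate 1 or 24 h replicate 2 (0.16 and 0.15), and it was 0.30 with library size alone as the scaling and 0.34 with GC and length trends removed.

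Among the checkpoint genes the 2 effector kinases rose and the upstream ones did not move together. CHEK2 rose by 1.57 ± 0.07 at 8 h and 2.47 ± 0.07 at 24 h, from 7.69 ± 0.54 to 42.6 ± 1.91 CPM. CHEK1 was not called at 8 h (0.12 ± 0.07, adjusted p = 0.11), rose by 1.47 ± 0.07 at 24 h and was still called higher at 48 h. ATR, the kinase of stalled forks, had 32.1, 34.3 and 32.5 CPM at 0 h, 83.9, 89.2 and 81.9 CPM at 8 h, 71.0, 65.8 and 64.8 CPM at 24 h, and 33.1, 33.4 and 34.8 CPM at 48 h. Its highest time was 8 h rather than 24 h, with a log2 change of -0.34 ± 0.09 from 8 to 24 h (adjusted p = 0.0027), and the 0 and 48 h libraries overlapped. ATM, the kinase of double-strand breaks, had 102, 113 and 102 CPM at 0 h and 102, 96.2 and 97.6 CPM at 24 h, a difference of -0.10 ± 0.14 that did not pass the test (adjusted p = 0.59). TOPBP1, which activates ATR, had 72.2, 73.6 and 68.3 CPM at 0 h and 83.7, 77.7 and 78.6 CPM at 24 h. These did not overlap, but the difference of 0.16 ± 0.08 missed the threshold (adjusted p = 0.09). It passed under 4 of the alternatives, library size alone (0.28), the DESeq2 Wald test (0.19), removal of GC and length trends (0.22) and a fit of the compared groups only (0.21).

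Seen by time, 25 genes were already higher at 8 h and 2 were lower (6 with library size alone), with a median log2 change of 0.72 against -0.10 over all genes. Over all genes tested, 32.2% were called higher at 8 h and 35.4% lower. Of those 25, 21 rose further between 8 and 24 h, 3 fell (ATR, MUS81 and SLX4) and PALB2 was not called. Another 9 were called higher at 24 h without a call at 8 h: BRIP1, CHEK1, FANCF, FANCG, FANCL, FANCM, RAD51C, RAD54B and RMI1. In the direct comparison of 24 with 8 h, 31 were higher and 3 lower, with a median of 1.5. The shares over all genes were 28.4% and 27.1%.

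By 48 h most of the rise was gone. Between 24 and 48 h, 33 of the 38 genes fell and 1 rose (FANCE, 0.48 ± 0.07), with a median log2 change of -1.64 against 0.06 over all genes. Of all genes tested, 25.5% were called lower and 28.2% higher. At least 2-fold lower were 28 of the 38, against 7.22% of all genes. EXO1 fell by 2.88 on the log2 scale, BLM by 2.85, BRCA2 by 2.58 and BRCA1 by 2.44. ATM, FANCF, MUS81 and SLX4 did not pass the test. The levels at 48 h were still above those at 0 h for 28 genes and below for 1, with a median of 0.66 (all genes 23.4% higher and 20.7% lower). EXO1 stood 4.49, EME1 4.42 and POLQ 3.97 above 0 h on the log2 scale, whereas ATR (0.04 ± 0.09), RAD51D (0.04 ± 0.06), RAD51B (0.04 ± 0.10) and RMI1 (0.03 ± 0.15) were not called. For RAD54B the call at 48 h (0.63) was lost without MYC-ER 0 h replicate 3 (0.43), and for FANCC (0.17) without any of 4 libraries, 0 h replicates 1 and 2 and 48 h replicates 1 and 3.

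Set against the parental line at the same hour, the difference changed sign and changed back. At 8 h 31 genes were lower in MYC-ER cells and 4 higher (median -1.10, with 25.5% and 23.1% of all genes). Of the 4 (ATR, PALB2, RBBP8 and TOPBP1), library size alone as the scaling left ATR. At 24 h 20 were higher and 3 lower (median 0.26, with 23.5% and 25.8% of all genes), and at 48 h 2 were higher and 33 lower (median -0.80, with 27.3% and 29.4% of all genes). Lower at 0 h, higher at 24 h and lower again at 48 h were 17 genes: BLM, BRCA1, BRCA2, CHEK1, CHEK2, EME1, EXO1, FANCA, FANCC, FANCD2, FANCG, FANCI, RAD51C, RAD54L, RMI2, XRCC2 and XRCC3. The share of all genes tested with this combined pattern was not counted. The excess at 24 h was small beside the earlier deficit. It was largest for CHEK2 (1.19 ± 0.07) and RAD51B (1.09 ± 0.10), the only 2 genes that reached 2-fold (8.35% of all genes), and it was 0.92 ± 0.12 for BLM, 0.64 ± 0.15 for BRCA2 and 0.28 ± 0.08 for BRCA1. POLQ (0.23 ± 0.13) and RAD51AP1 (0.01 ± 0.10) did not pass the test. MUS81, RAD51D and SLX4 were lower in MYC-ER cells at all 4 times.

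**Figure D4:**
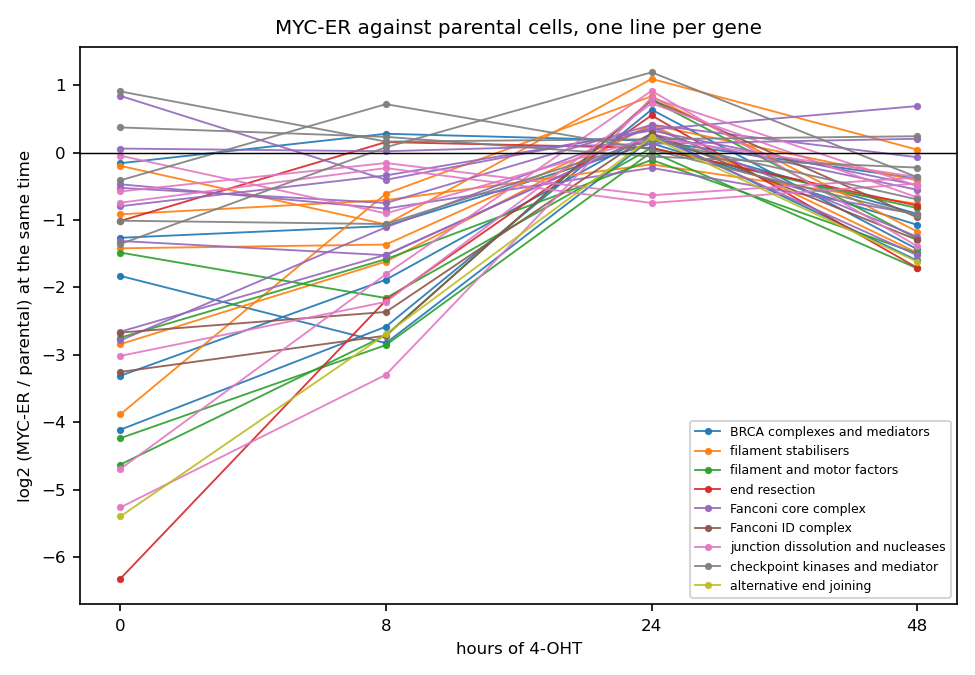
Each line is 1 of the 38 genes, coloured by role, and shows the log2 ratio of MYC-ER to parental cells at 0, 8, 24 and 48 h of 4-OHT (3 libraries per group). The lines start between -6.32 and 0.91, gather between -0.75 and 1.19 at 24 h and spread downward again to -1.72 at 48 h.

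The parental line, which carries no fusion, showed smaller changes under the same ligand. At 8 h 20 genes were called higher and 1 lower, at 24 h 26 and 2, and at 48 h 9 and 9, with medians of 0.22, 0.36 and -0.04. The balance at 48 h was not firm: 17 were higher without parental 0 h replicate 2 and 5 without replicate 3, and with GC and length trends removed 2 were higher and 17 lower. Over all genes the shares called higher were 15.0%, 21.2% and 20.4%, and lower 16.0%, 21.7% and 20.1%. Only BRIP1 (1.17 ± 0.17) and BARD1 (1.01 ± 0.15) rose at least 2-fold at 24 h (1.88% of all genes). The parental log2 changes were lower for genes with more GC in their transcripts, with a Spearman's rho over the 38 of -0.77, -0.82 and -0.76 for 8, 24 and 48 h. This is a description across genes, which share their libraries. Over 9784 genes that averaged 10 CPM or more, rho was -0.62, -0.66 and -0.65. With the GC and length trends of each library removed, rho over the 38 was -0.10, -0.26 and -0.05. The calls were then 15, 16 and 19, of which 13, 16 and 2 were higher. Over all 22158 genes they numbered 5687, 7136 and 6456, against 6870, 9503 and 8978 in the reported fit. ATM, rich in A and T, had a parental change of 0.61 ± 0.15 at 24 h, which became 0.02 (adjusted p = 0.86). In a fit of the 2 compared groups only, 4, 20 and 5 of the 38 were called. The calls over all genes fell in that fit too, to 1452 of 19596, 4923 of 19581 and 3274 of 19680.

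**Figure D5:**
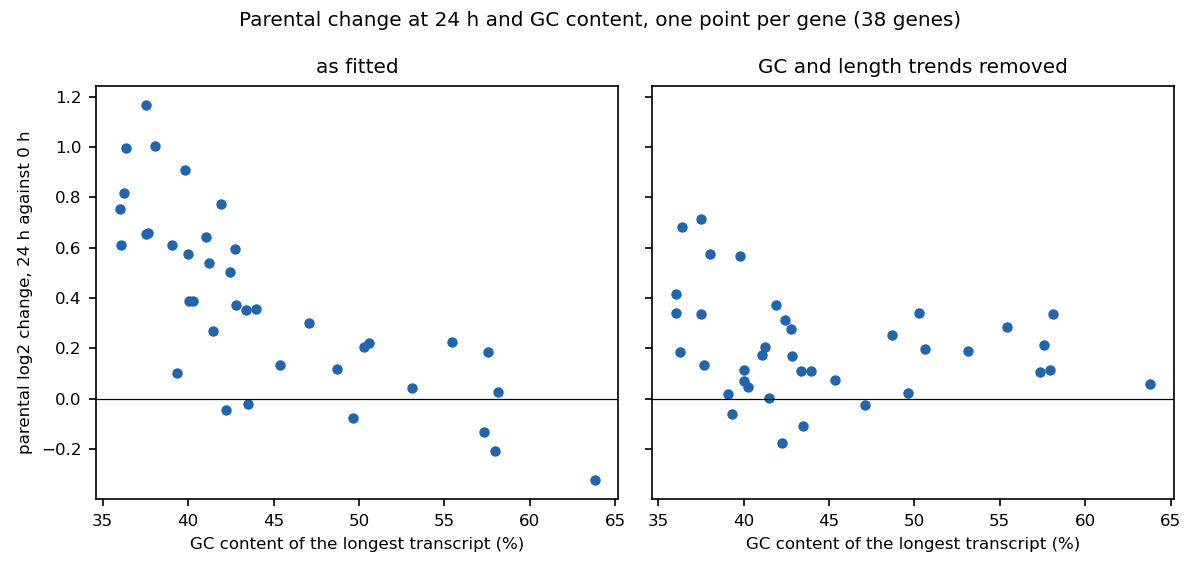
Each point is 1 of the 38 genes; the horizontal axis gives the GC content of its longest transcript (36.0 to 63.8%) and the vertical axis the parental log2 change between 24 h and 0 h, as fitted (left) and with each library's GC and length trends removed (right). The left points slope downward from BRIP1 to XRCC3 (rho -0.82), and the right points lie nearer to 0 (rho -0.26).

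The 3 untreated parental libraries differed most in genes of low GC content. ATM had 53.8, 75.7 and 38.9 CPM, BRCA2 12.9, 18.6 and 9.52 CPM, and BRIP1 6.41, 10.9 and 5.08 CPM in replicates 1, 2 and 3. Among the 19 genes with the lower GC content, replicate 2 was the highest for 17, while the lowest was replicate 3 for 13 and replicate 1 for 6, among them RMI1 and RAD54B. EXO1, with 39.7, 39.5 and 39.0 CPM, did not show this spread. Without parental 0 h replicate 2 the parental calls numbered 23, 30 and 27 for 8, 24 and 48 h, and without replicate 3 the count at 48 h was 13. The MYC-ER comparisons with 0 h do not use these libraries, and rho with GC content in them was 0.05, -0.11 and -0.08 over the 38 genes at 8, 24 and 48 h. The comparisons of the lines do use them. Without parental 0 h replicate 2, the untreated difference of FANCM went from -0.47 to -0.23 and that of ATR from -0.41 to -0.24, both still past the threshold.

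The difference between the responses of the lines was tested directly. The change in MYC-ER cells exceeded that in parental cells for 24 genes and fell short of it for 8 at 8 h, for 30 and 3 at 24 h, and for 26 and 4 at 48 h. In a fit of the compared groups only, the 8 became 5 and the 4 became 2. Called higher in MYC-ER cells and lower in parental cells, with the difference past the test, were 1 gene at 24 h (XRCC3, against 6.22% of all genes) and 8 at 48 h (against 4.95%), and the latter were 2 in that fit. Over all genes, 27.3%, 27.7% and 23.6% were higher and 27.8%, 26.8% and 21.4% lower. At 24 h the difference was 6.87 ± 0.12 for EXO1, 6.08 ± 0.15 for EME1, 5.62 ± 0.21 for POLQ, 5.61 ± 0.19 for BLM and 5.41 ± 0.11 for RAD54L on the log2 scale. It was negative for ATM (-0.71 ± 0.20), FANCE (-0.50 ± 0.10) and TOPBP1 (-0.43 ± 0.12). With GC and length trends removed it was -0.80 for FANCE, while ATM (-0.07, adjusted p = 0.56) and TOPBP1 (-0.05, adjusted p = 0.46) no longer passed the test. FANCF, FANCM, MUS81, RMI1 and SLX4 did not pass this test, with differences between -0.06 and 0.27.

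The other genes of the pathway moved less uniformly. Of 49 further recombination, crosslink and checkpoint genes, 29 were higher and 12 lower at 24 h in MYC-ER cells, with a median log2 change of 0.32. The shares over all genes tested were 30.4% higher and 31.2% lower. CLSPN, the adaptor through which ATR reaches CHEK1, went from 0.574, 0.578 and 0.566 CPM to 31.1, 27.9 and 28.1 CPM, a rise of 5.66 ± 0.16. PARPBP, which restrains homologous recombination, rose by 2.94 ± 0.11 and TIPIN, of the complex that protects replication forks, by 2.46 ± 0.08. The largest falls were those of ZSWIM7, a cofactor of recombination (-1.23 ± 0.10), ABRAXAS1 of the BRCA1-A complex (-0.56 ± 0.09) and FAN1, a crosslink nuclease (-0.53 ± 0.06).

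Promoters were read for 35 of the 38 genes, as windows of 250 bases before to 50 bases after each RefSeq gene start on GRCh38.p14. RAD54B, RMI2 and FANCI had no entry. Letters of 4 motif kinds were searched on both strands: E2F-like (TTTGGCGC, TTTCCCGC, TTTCGCGC or TTTGCCGC), CHR-like (TTTGAA or TTCGAA), the E-box CACGTG and CCAAT. An E2F-like match was present for 7 of the 35 genes (20%), against 3.31% of all 35116 windows and 5.40% of 15843 protein-coding genes with a window. For CHR-like letters it was 5 genes (14.3%, against 17.5% of coding genes), for the E-box 2 (5.71%, against 10.9%) and for CCAAT 15 (42.9%, against 42.1%). The E2F-like matches were in EXO1, FANCA, FANCC, FANCD2, RMI1, TOPBP1 and XRCC2, whose log2 changes at 24 h ran from 0.16 to 7.38. A gene counts if any of its windows matches, and a match of letters is a description, not a bound site.

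The windows below show both kinds of gene side by side, 3 with a strong rise and an E2F-like match (EXO1, FANCD2, XRCC2), TOPBP1 with such a match and no call at 24 h, 2 with a strong rise and several CCAAT matches (BLM, XRCC3), and FANCE, which fell and has none of the 4. Each is written from 5′ to 3′ on the strand of the gene, from RefSeq, with the motif letters in capitals. Their positions are chr1:241847954-241848253 (plus strand) for EXO1, chr3:10026187-10026486 (plus) for FANCD2, chr7:152676092-152676391 (minus) for XRCC2, chr3:133661892-133662191 (minus) for TOPBP1, chr15:90717096-90717395 (plus) for BLM, chr14:103715402-103715701 (minus) for XRCC3 and chr6:35452088-35452387 (plus) for FANCE.
EXO1: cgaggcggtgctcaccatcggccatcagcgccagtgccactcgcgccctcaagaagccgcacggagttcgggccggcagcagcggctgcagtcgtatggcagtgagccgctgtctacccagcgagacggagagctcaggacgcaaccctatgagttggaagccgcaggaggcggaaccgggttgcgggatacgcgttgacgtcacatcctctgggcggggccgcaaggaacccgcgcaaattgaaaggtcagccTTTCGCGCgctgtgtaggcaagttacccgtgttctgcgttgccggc
FANCD2: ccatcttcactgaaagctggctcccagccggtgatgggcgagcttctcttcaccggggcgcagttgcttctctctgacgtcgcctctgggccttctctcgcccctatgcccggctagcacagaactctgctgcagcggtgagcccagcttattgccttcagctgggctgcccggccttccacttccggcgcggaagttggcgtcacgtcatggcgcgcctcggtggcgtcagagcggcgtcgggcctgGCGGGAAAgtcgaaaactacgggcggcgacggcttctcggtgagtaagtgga
XRCC2: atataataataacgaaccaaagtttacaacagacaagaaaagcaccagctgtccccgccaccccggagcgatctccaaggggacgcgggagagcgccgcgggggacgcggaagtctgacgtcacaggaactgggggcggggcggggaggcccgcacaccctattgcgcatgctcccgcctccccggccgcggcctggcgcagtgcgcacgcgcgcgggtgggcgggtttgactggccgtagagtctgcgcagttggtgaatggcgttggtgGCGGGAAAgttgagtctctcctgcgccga
TOPBP1: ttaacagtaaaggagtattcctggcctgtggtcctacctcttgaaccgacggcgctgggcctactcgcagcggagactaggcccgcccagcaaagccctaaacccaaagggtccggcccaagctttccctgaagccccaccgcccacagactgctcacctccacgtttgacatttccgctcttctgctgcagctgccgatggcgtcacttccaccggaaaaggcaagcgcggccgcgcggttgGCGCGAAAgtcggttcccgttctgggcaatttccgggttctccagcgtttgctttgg
BLM: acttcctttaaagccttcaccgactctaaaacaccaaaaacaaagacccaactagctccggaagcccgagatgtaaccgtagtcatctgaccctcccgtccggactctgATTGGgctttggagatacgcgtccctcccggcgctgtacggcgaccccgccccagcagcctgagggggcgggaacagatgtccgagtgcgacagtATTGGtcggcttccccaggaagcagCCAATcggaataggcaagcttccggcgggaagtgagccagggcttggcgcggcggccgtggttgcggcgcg
XRCC3: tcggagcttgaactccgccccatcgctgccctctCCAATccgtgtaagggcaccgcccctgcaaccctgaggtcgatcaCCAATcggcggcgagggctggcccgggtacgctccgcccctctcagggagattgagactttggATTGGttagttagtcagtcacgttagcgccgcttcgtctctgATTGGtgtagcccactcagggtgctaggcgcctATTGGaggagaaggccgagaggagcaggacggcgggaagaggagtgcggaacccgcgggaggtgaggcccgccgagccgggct
FANCE: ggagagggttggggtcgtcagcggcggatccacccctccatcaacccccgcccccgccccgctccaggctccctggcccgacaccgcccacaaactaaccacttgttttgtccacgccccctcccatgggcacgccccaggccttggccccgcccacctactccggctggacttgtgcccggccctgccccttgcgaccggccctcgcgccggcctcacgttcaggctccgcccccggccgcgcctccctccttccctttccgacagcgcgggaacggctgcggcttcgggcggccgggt
In EXO1, FANCD2, XRCC2 and TOPBP1 the capitals lie near the end of the window, around the gene start, with 1 match in each. BLM holds 3 and XRCC3 5 CCAAT matches, all upstream of the start. TOPBP1 and EXO1, picked as examples, changed by 0.16 ± 0.08 and 7.38 ± 0.10 at 24 h. Over the 35 genes the median log2 change at 24 h was 3.38 with an E2F-like match and 1.70 without. For CHR-like, E-box and CCAAT matches these medians were 3.02 and 1.70, 3.45 and 1.78, and 2.47 and 1.70. Whether the letters bear on the changes was not tested.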

How the data were processed

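RNA was measured in 24 libraries from poly(A) RNA, with stranded paired reads, per the labels' protocols. The authors deposited 1 table of whole-number counts per gene; per the submitters' processing notes, Trimmomatic 0.39, STAR, StringTie 2.1.3b and GRCh38 were used, with their roles and the strand setting not given in the sources used here. Lanes held 3 pooled libraries, and which ones is not given in the labels.

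Counts were tested in R 4.3.3 with edgeR 4.0.16 (quasi-likelihood F test, two-sided, TMM scaling, filterByExpr, 1 mean for each of 8 groups over all 24 libraries). Adjusted p-values are Benjamini-Hochberg over 22158 genes, and the threshold was 0.05. Levels are CPM on TMM-scaled totals, which are not divided by transcript length, so they compare groups and not genes. Values after ± are SD over 3 libraries for levels and SE of the fit for log2 changes. Total counts ran from 136860029 to 182438505, and the common biological coefficient of variation was 0.151. Replicates were separate libraries: chi-square per degree of freedom was 8.46 to 258 over the 24 pairs. Changes against 0 h in a line share its untreated libraries.

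The members and gene lists were chosen with earlier results of these data known. Any of the 38 genes could be named; of the 49 other pathway genes, the 3 largest rises and falls at 24 h past the threshold with no overlap were named, and 1 further gene of that list is not reported here. DESeq2 1.42.0, other scalings and filters, removal of GC and length trends (lowess span 0.3), a replicate block, a fit of the compared groups only and leaving out each library were alternatives. The fit was tested on simulated data for MYC-ER 24 h against 0 h: of 200 changed genes among 21535, 22 of 66 were called at a log2 change of 0.5, 47 of 67 at 1 and 50 of 67 at 1.5.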

Additional observations from a re-analysis of the deposited data

Results flagged for a closer look

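In the direct test of MYC-ER against parental changes (edgeR quasi-likelihood test), 32 of the 38 genes responded differently after 8 h, 33 after 24 h and 30 after 48 h. Over all genes tested the change was larger in MYC-ER cells for 27.3%, 27.7% and 23.6% and smaller for 27.8%, 26.8% and 21.4%, so many genes outside the set responded differently too. In some of these genes the lines were called in opposite directions. At 24 h this was XRCC3, higher by 4.39 in MYC-ER and with -0.32 in parental cells on the log2 scale, a difference of 4.72. Calls in these directions, higher in MYC-ER and lower in parental cells with the difference past the test, were made for 6.22% of all genes. The parental value did not pass the test in a fit of the compared groups only (-0.32, adjusted p = 0.096) or without parental 0 h replicate 3 (-0.21, adjusted p = 0.085), and it was 0.060 with GC and length trends removed. XRCC3 shares 76.7% of its exon bases with KLC1.

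At 48 h 8 genes were higher than at 0 h in MYC-ER cells and lower in parental cells, as were 4.95% of all genes. With only the compared groups in the fit, 2 such genes were found (RAD51C and XRCC3), and with library size alone 6. With GC and length trends removed there were 14, of which FANCA, RAD51C, RAD54L and XRCC3 were among the 8. The differences between the lines were 4.77 for EME1 (4.42 and -0.35), 3.35 for RAD54L (3.05 and -0.31), 2.71 for XRCC3 (2.06 and -0.65), 2.35 for RMI2 (1.96 and -0.39), 1.54 for FANCA (1.36 and -0.18), 1.01 for RAD51C (0.58 and -0.43), 0.99 for CHEK2 (0.78 and -0.21) and 0.76 for FANCG (0.45 and -0.31). The summed S phase level in the parental line was 1248 CPM at 0 h and 1003 CPM at 48 h, and its part in these results was not tested.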

How the results depend on the processing

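Calls among the 38 genes stayed within 1.5 times their main number in every comparison and alternative, with 3 exceptions in parental cells. With only the compared groups in the fit there were 4 at 8 h and 5 at 48 h. With GC and length trends removed there were 16 at 24 h. The calls over all genes in these fits were 1452 of 19596, 3274 of 19680 and 7136 of 22158. The cause was not tested. Leaving out 1 library gave, in MYC-ER cells, 27 to 28 genes at 8 h, 35 at 24 h, 27 to 29 at 48 h, and 33 to 34 both for 24 against 8 h and for 48 against 24 h. In parental cells it gave 15 to 23, 25 to 30 and 13 to 27, with the lowest at 8 h without 0 h replicate 1. Between the lines it gave 34 to 35, 33 to 34, 21 to 23 and 32 to 34 at 0, 8, 24 and 48 h, and for the difference in response 28 to 33, 33 and 28 to 32. With GC and length trends removed, the sign turned for SLX4 in MYC-ER 48 against 24 h (-0.14); in parental cells at 8 h for XRCC3 (0.25), RBBP8 (-0.025), MUS81 (0.14) and ATR (-0.044), at 24 h for RAD51D (-0.025), XRCC3 (0.060) and FANCE (0.11), and at 48 h for BRCA1 (-0.19), BRCA2 (-0.34), RBBP8 (-0.080), FANCE (0.22), FANCM (-0.27) and POLQ (-0.28); and in the difference in response for FANCL at 8 h (0.0087) and FANCM (0.16), MUS81 (-0.071) and ATR (0.047) at 48 h. RMI1, not called between the untreated lines, ranged from -0.18 without parental 0 h replicate 1 to 0.26 without replicate 2. Library size alone moved the median of all genes by 0.11 at 24 h, 0.16 at 48 h and 0.21 for 24 against 8 h in MYC-ER cells, and by 0.12 and 0.14 between the lines at 24 and 48 h. The share of all calls that were higher went from 53.0 to 73.8% at 48 h in MYC-ER cells and from 51.2 to 67.8% for 24 against 8 h. It went from 47.6 to 60.7% and from 48.2 to 59.8% between the lines at 24 and 48 h, and from 52.5 to 63.5% for the difference in response at 48 h. Same-numbered replicates did not deviate together (mean r 0.00 over 84 pairs), and with the replicate block the counts were 28, 36 and 29 at 8, 24 and 48 h in MYC-ER cells and 20, 28 and 18 in parental cells. Over the single genes, the replicate block brought 1 call and lost 2.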

Other observations

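Genes of non-homologous end joining, which rejoins breaks without a template, moved in both directions in MYC-ER cells. Of 16 listed genes, 6 were higher and 4 lower at 24 h than at 0 h, with a median log2 change of 0.09. Both shares lie near those over all genes tested, 30.4% higher and 31.2% lower. PRKDC, the catalytic subunit of DNA-dependent protein kinase, rose from 159 ± 7.66 to 612 ± 39.2 CPM (1.94 ± 0.09), and XRCC4, the scaffold of the ligase, from 4.43 ± 0.28 to 11.0 ± 0.05 CPM (1.31 ± 0.08). Both Ku subunits rose, XRCC5 by 1.03 ± 0.05 and XRCC6 by 0.89 ± 0.07, as did RIF1 (1.03 ± 0.13) and PAXX (0.35 ± 0.11). NHEJ1, also called XLF, fell from 22.9 ± 2.29 to 12.4 ± 0.44 CPM (-0.88 ± 0.08), and TP53BP1, which limits resection, had a log2 change of -0.49 ± 0.07. SHLD1 (-0.40 ± 0.15) and SHLD2 (-0.63 ± 0.06) of the shieldin complex were also lower. In parental cells 6 were higher and 4 lower at 24 h, with a median of 0.10, against 21.2% and 21.7% of all genes.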
